A study of Mus musculus with 12 samples.

Results

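Tumors from p53 knockout mice were compared with marrow stromal cells sorted from p53 wild-type mice, over all genes that both deposited expression tables hold. The comparison took 9 of the 12 libraries of the series, 6 of tumors labelled p53 knockout (tumors 1 to 6) and 3 of mesenchymal stem cells labelled p53 wildtype (WT MSC 1 to 3), and left out the 3 libraries of knockout stromal cells. Of 24421 genes in the stabilized table, 18949 were also in the other table, and 18948 of these varied and were tested. The groups therefore differed in 3 ways at once: in p53 genotype, in being a tumor, and in how the cells were obtained. The labels describe the stromal cells as a CD45-, Ter119-, CD31-, LepR+ and CD140a+ sort, lysed directly in RLT buffer. For the tumors they give the cell type as tumor cell and TRIzol extraction followed by an RNeasy column, and they describe no sort. Both groups were freshly isolated, and neither strain, age, sex, the deleted stretch of the p53 gene, nor a Cre line is given. These 3 differences cannot be told apart in this design.

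LepR+ stromal cells are the main skeletal stem and progenitor cells of adult mouse marrow. They secrete CXCL12 and stem cell factor, on which blood stem cells depend, and they can form bone and fat. Trp53 encodes p53, a transcription factor that halts the cell cycle or triggers cell death after DNA damage, and mice without it develop lymphomas and sarcomas.

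Expression values are on the authors' variance-stabilized, batch-adjusted log2 scale, on which a difference of 1 is 2-fold for well-expressed genes and less than the true fold for weak ones. Each difference below is the tumor mean minus the WT MSC mean with its standard error from limma, over 6 tumors and 3 WT MSC libraries. A gene passed at a Benjamini-Hochberg adjusted p under 0.05 over all 18948 genes. The labels do not say that libraries of a group came from separate mice, so the p-values rest on the spread among libraries, which may be technical. Sequencing depth is unknown, since the tables hold no counts. In bulk RNA, fewer cells of a type and less RNA per cell cannot be told apart. The value of an undetected gene, 4.75 before batch adjustment, marks 2 batches, 1 with WT MSC 1 and tumors 1 to 3 and the other with WT MSC 2 and 3 and tumors 4 to 6. WT MSC 1 stood apart: 879 of the tested genes were at the floor there, against 3425 to 5213 in the other 8 libraries. A value counted as the floor only where at least 2 libraries of a batch shared it. WT MSC 1 is the only WT MSC library of its batch, so genes undetected in it alone, such as Ccl8, were not counted. Counts of list members are therefore given without WT MSC 1 as well. Correlations across genes were 0.939 to 0.974 between WT MSC libraries, 0.842 to 0.949 between tumors and 0.642 to 0.853 between a tumor and a WT MSC library, as a description.

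Trp53 itself (chromosome 11, 69580348 to 69591873, RefSeq, GRCm38.p6) was read first as a check of the genotype label. It stood at 9.96, 10.04 and 10.61 in WT MSC 1 to 3, and at 7.56, 7.80, 8.72, 9.16, 7.19 and 6.79 in tumors 1 to 6. Every tumor was below every WT MSC library, but no tumor was near the floor. The difference was -2.33 ± 0.51 (limma, adjusted p = 0.00901), with 6 of 6 tumors lower. It was -1.93 within batch 1 and -2.61 within batch 2. It did not pass without WT MSC 3 (-2.13, adjusted p = 0.0506) or in batch 2 alone (adjusted p = 0.204). The genes of the sorting gate followed the sort and are no finding: Lepr fell by 8.65 ± 0.95 and Pdgfra, which encodes CD140a, by 2.22 ± 0.52. Ptprc, which encodes CD45, was 2.57 ± 0.71 higher in tumors, and Pecam1, which encodes CD31, 2.37 ± 0.59 higher.

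In all, 4033 genes passed (21.3% of those tested), 1970 of them higher in tumors (10.4%) and 2063 lower (10.9%). The median difference over all genes was -0.06. Of the genes that passed, 3665 differed by at least 2-fold and 635 by at least 8-fold on this scale, and of these 635, 403 were higher and 232 lower. In 4772 genes (25.2% of those tested) the tumors and WT MSC libraries did not overlap, and 4031 of the 4033 genes that passed had the same sign in both batches. The count was 1856 without WT MSC 1, 2339 without WT MSC 2 and 2268 without WT MSC 3. Allowing for transcript length, it was 5315, with 2034 higher and 3281 lower, so the share of higher genes among those that passed moved from 48.9% to 38.3%. Tumors varied more among themselves than WT MSC libraries did: over 6348 genes with a mean of at least 8, the median SD was 0.674 across tumors and 0.359 across WT MSC libraries.

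**Figure D1:**
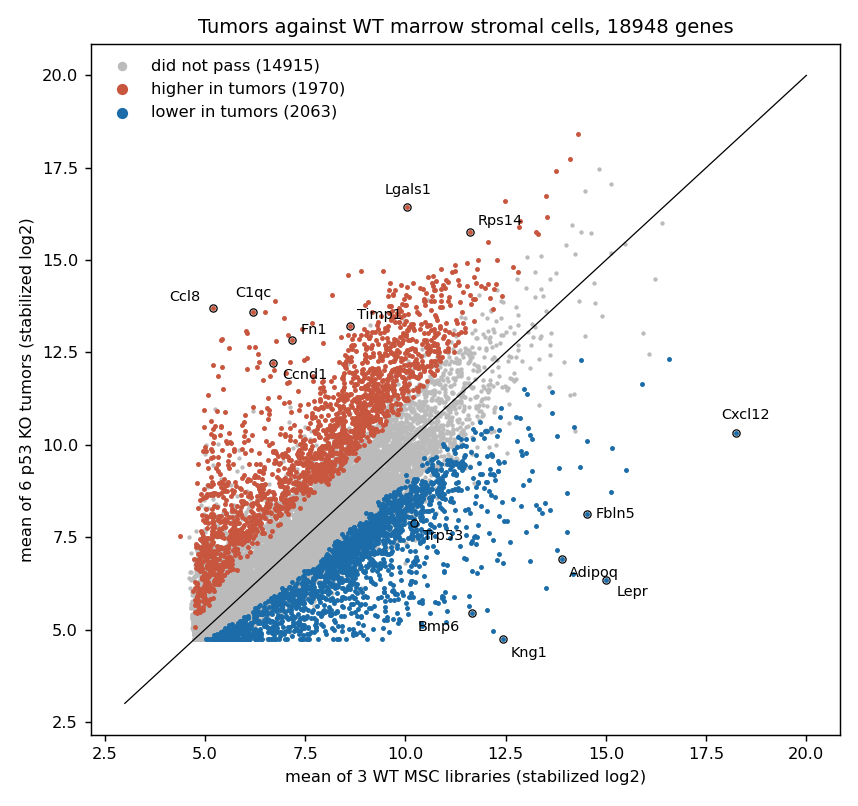
Each point is 1 of 18948 genes, with its mean over 3 WT MSC libraries on the horizontal axis and its mean over 6 tumors on the vertical axis, both in stabilized log2 units. Red marks the 1970 genes higher in tumors, blue the 2063 lower and grey those that did not pass, and Ccl8, C1qc and Lgals1 lie far above the line of equality while Lepr, Cxcl12 and Kng1 lie far below it.

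The niche genes of LepR+ stromal cells had the lowest median of the 44 gene lists in tumors. Of 27 LepR+ marrow stromal genes 22 fell, 2 rose and 3 did not pass, beside 10.9% of all genes falling, with a median difference of -3.96 against -0.06 over all genes. Lepr and Pdgfra, on which the cells were sorted, are among the 22. The whole list marks the cell type that the sort selected, and no sort is described for tumors. A lower median in tumors was therefore built into the comparison. The median was -3.35 within batch 1 and -4.05 within batch 2. Without WT MSC 1, 18 fell and 1 rose.

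Cxcl12 (chromosome 6, 117168535 to 117181368), a chemokine that retains blood stem cells in the marrow, was at 19.89, 17.69 and 17.15 in WT MSC and at 11.64, 10.69, 12.69, 9.50, 9.60 and 7.77 in tumors 1 to 6. The lowest WT MSC library lay far above the highest tumor, and the difference was -7.93 ± 1.01 (limma, adjusted p = 0.00132). Kitl, which encodes stem cell factor, was at 11.60, 11.81 and 11.59 in WT MSC and between 5.89 and 8.59 in tumors, a fall of 4.26 ± 0.61. The WT MSC values of Kitl were close together, whereas tumors 1 to 3, all of batch 1, were each above tumors 4 to 6 of batch 2. Il7, the growth factor of early lymphocytes, fell by 4.60 ± 0.57, and Angpt1, which encodes a ligand of the endothelial receptor Tie2, by 3.14 ± 0.47. Vcam1, an adhesion molecule for blood cells, fell by 4.44 ± 0.59 and Csf1, the macrophage growth factor, by 2.37 ± 0.64.

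The transcription factors that maintain these cells fell too: Ebf3 (-3.57 ± 0.42), Foxc1 (-3.56 ± 0.83), Ebf1 (-2.57 ± 0.56) and Runx1 (-2.37 ± 0.38). Ebf3 was at 10.24, 8.89 and 8.31 in WT MSC and at 5.01 to 5.92 in tumors, with a median of 5.62. Secreted products fell further, with Adipoq, the adiponectin gene, at -7.00 ± 0.96, Hp (haptoglobin) at -6.39 ± 1.04, Igfbp5 at -5.39 ± 0.91 and Gas6, a ligand of the TAM receptors, at -5.23 ± 0.81. The 2 members that rose were Nes, an intermediate filament gene that also marks vessel-associated cells (2.70 ± 0.55), and Bst1 (1.66 ± 0.38). Grem1 (-1.96), Ebf2 (-0.94) and Nr2f2 (1.74) did not pass.

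Beyond that list, other secreted proteins and enzymes were among the largest falls. Kng1 and Kng2, which encode kininogens and are close copies that counting could split between them, were at the batch floor in nearly every tumor. Kng1 was at 13.43, 12.42 and 11.48 in WT MSC, and at 5.95 in tumors 1 to 3 and 3.55 in tumors 4 to 6, which are the floors of the 2 batches. Its difference was -7.69 ± 0.74. Chrdl1, an antagonist of BMPs, fell by 7.39 ± 0.67, Agt (angiotensinogen) by 6.39 ± 1.32, Fbln5, an elastic fibre protein, by 6.40 ± 0.90 and Serping1, the complement C1 inhibitor, by 6.19 ± 0.91. The xenobiotic oxidases Cyp1b1 and Fmo2 fell by 6.62 ± 0.91 and 5.33 ± 0.47. In 6 genes every WT MSC library was at 9 or more and every tumor below 6.5: Kng1, Kng2, Bmp6, Fmo2, Slco1a4 and Il7.

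**Figure D2:**
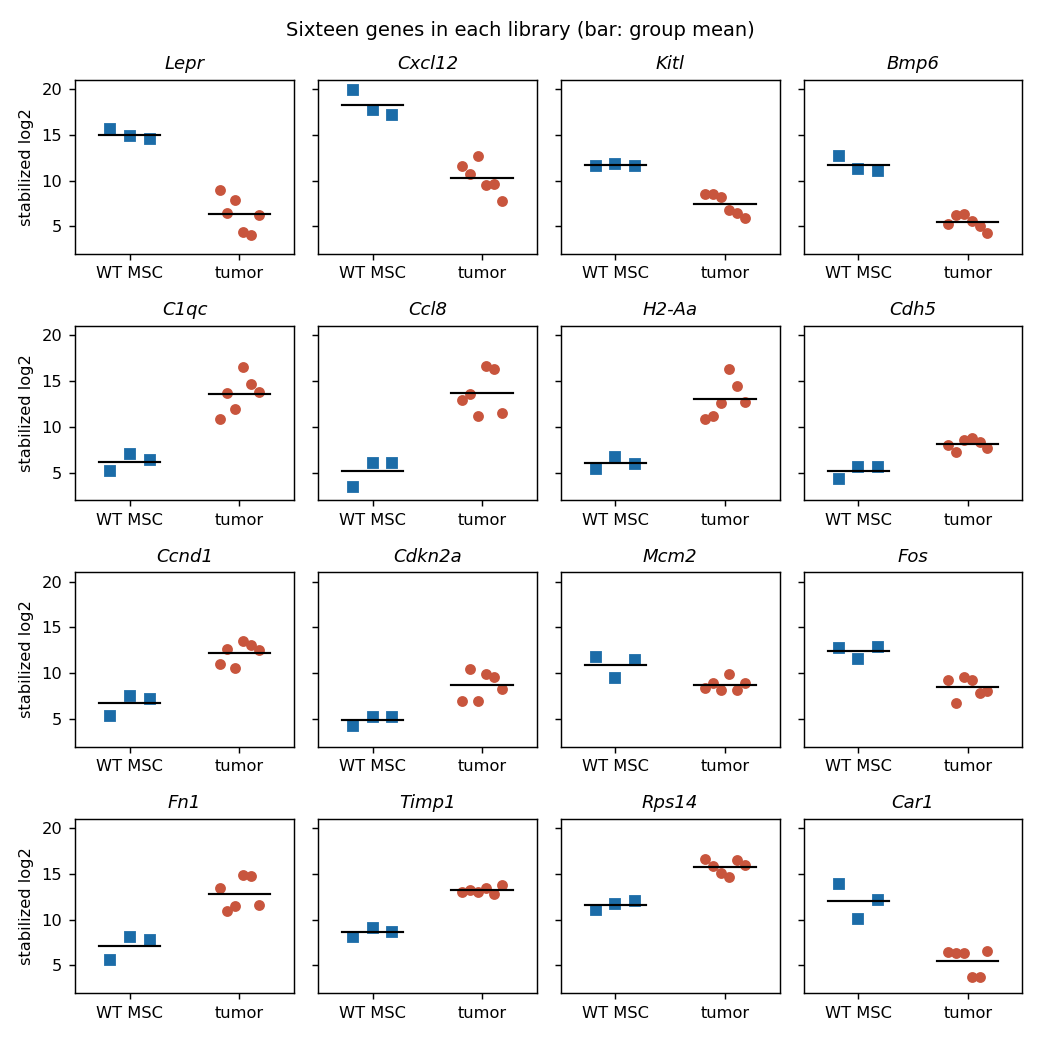
Each panel shows 1 gene, with squares for the 3 WT MSC libraries, circles for the 6 tumors and a bar for each group mean, in stabilized log2 units. Timp1 in tumors spans only 12.81 to 13.76 while Ccl8 spans 11.24 to 16.64, and for Mcm2 the groups overlap because WT MSC 2 (9.46) lies below tumor 4 (9.87).

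In 3 lists of signalling genes more members fell than rose. Of 36 TGF-beta and BMP pathway genes 14 fell, 2 rose and 20 did not pass (median -0.56, -0.32 and -0.59 within the batches). The share that passed was 44.4% beside 21.3% of all genes. Without WT MSC 1, and likewise without WT MSC 2, 9 fell and 2 rose. Among ligands, Bmp6, an iron-regulating BMP, was at 12.66, 11.25 and 11.09 in WT MSC and at 4.25 to 6.31 in tumors, with a median of 5.39. No tumor came near a WT MSC library, and Bmp6 fell by 6.21 ± 0.53 (limma, adjusted p = 0.000638). Bmp4 fell by 4.41 ± 0.47 and Bmp5 by 3.51 ± 0.61, and Tgfb3 by 2.91 ± 0.88. Among genes that store or block ligands, Ltbp2 fell by 5.24 ± 0.62 and the activin antagonist Fst by 3.17 ± 0.75. Of the Id genes, which are immediate targets of BMP receptors, Id1 (2.72 ± 0.47) and Id2 (3.10 ± 0.51) rose while Id4 fell by 4.22 ± 0.59, and Id3 (2.08) did not pass.

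Of 36 Wnt pathway genes 10 fell, none rose and 26 did not pass, which is 27.8% beside 21.3% of all genes. Without WT MSC 1, 8 fell, and under quantile or upper-quartile scaling 10 fell and 2 rose. The median of the list was -0.04, near that of all genes, and turned positive under those scalings (0.08 and 0.06). Rspo2, a secreted amplifier of Wnt signals, was at 11.62, 11.23 and 10.16 in WT MSC and at 4.09 to 6.54 in tumors (-5.80 ± 0.66), and Rspo3 fell by 3.35 ± 0.56. The secreted Wnt inhibitors Sfrp4 and Sfrp1 fell by 5.08 ± 0.80 and 2.57 ± 0.49, and the receptors Fzd1 and Fzd7 by 3.64 ± 0.58 and 2.57 ± 0.44. Both amplifiers and inhibitors of the pathway were among the genes that fell. Axin2 (0.69) and Lef1 (0.69), which Wnt signals induce in many tissues, did not pass.

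Of 24 growth factor receptor kinases 11 fell, 0 rose and 13 did not pass (median -0.53), which is 45.8% beside 21.3% of all genes. Without WT MSC 1 or without WT MSC 2, 6 fell. Without WT MSC 3, 7 fell, and 1 rose under upper-quartile scaling. Egfr was at 10.38, 9.85 and 10.21 in WT MSC and at 5.55 to 7.77 in tumors (-3.42 ± 0.44), with no overlap. Kit, the receptor of stem cell factor, fell by 2.99 ± 0.33. Blood progenitors express Kit too, and the progenitor markers Gata1 and Myb fell by 4.34 ± 0.62 and 3.12 ± 0.48, whose part in the fall of Kit was not tested. Ret fell by 2.8 ± 0.40, Erbb2 by 2.70 ± 0.42 and Fgfr3 by 2.88 ± 0.67. Fgfr2 fell by 4.30 ± 1.16 but spread from 5.38 in tumors 2 and 5 to 11.36 in tumor 1. Met, the receptor of hepatocyte growth factor, was higher in every tumor than in any WT MSC library but did not pass (2.48 ± 0.90, limma, adjusted p = 0.0738).

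Of 28 Hox and limb position genes 6 fell, 1 rose and 21 did not pass (median -0.27), which is 25% beside 21.3% of all genes. Without WT MSC 1, 2 fell and 0 rose, and without WT MSC 3, 2 fell and 1 rose. Pitx1, which specifies the hindlimb, was at 8.27, 9.10 and 8.15 in WT MSC and at the floor of its batch in all 6 tumors (-3.75 ± 0.33, limma, adjusted p = 0.000638). Hoxa9, Hoxa10 and Hoxa11, which pattern limb segments, fell by 2.14 ± 0.55, 2.74 ± 0.85 and 1.79 ± 0.45. For Hoxa10 tumor 2 (9.27) reached the lowest WT MSC library (9.27). Hoxb7 rose by 2.33 ± 0.51. Of 17 adipocyte genes 5 fell and 1 rose (4 and 0 without WT MSC 1), which is 35.3% beside 21.3% of all genes. Among them, Pparg, the master regulator of fat cells, fell by 3.56 ± 0.46, and Fabp4 rose by 3.51 ± 1.01.

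Macrophage genes had the highest median of the 44 lists. Of 20 macrophage markers 18 rose and none fell, beside 10.4% of all genes rising, with a median of 5.39 (4.83 and 5.74 within the batches). The mean over the 20 markers was 5.49 to 6.77 in WT MSC libraries and 10.05 to 13.24 in tumors, and 15 of the 20 averaged under 6.5 in WT MSC. Cd14 and Itgam did not pass. Without WT MSC 1, 14 rose. CD45+ cells were removed from the stromal cells by the sort, and no such step is described for tumors.

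C1qa, C1qb and C1qc encode the complement component C1q, which tissue macrophages make. C1qc was at 5.21, 7.0 and 6.40 in WT MSC and at 10.91, 13.70, 12.00, 16.56, 14.63 and 13.79 in tumors 1 to 6, so that the groups were far apart although tumors differed widely. It rose by 7.39 ± 1.03 (limma, adjusted p = 0.00158), and C1qa and C1qb rose by 7.03 ± 1.01 and 7.11 ± 1.06. Ms4a7, a macrophage membrane gene, rose by 7.44 ± 0.83, the signalling adaptor Tyrobp by 7.14 ± 0.90 and the lysosomal protease Ctss by 7.06 ± 0.87. Csf1r, the receptor for the products of Csf1 and Il34, rose by 4.37 ± 0.94, while Il34 fell by 3.96 ± 0.94. Trem2, a lipid receptor of macrophages, rose by 4.79 ± 0.70, Mrc1, the mannose receptor, by 3.78 ± 0.96 and the resident-macrophage gene Cd163 by 1.89 ± 0.43. Tumor 4 held the highest value of C1qa, C1qb, C1qc, Csf1r, Ctss and Lyz2, whereas tumor 5 held that of Ms4a7, Tyrobp and Aif1.

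Promoters of the macrophage markers are shown because 18 of these genes rose together. The letters GAGGAAG, which the macrophage factor PU.1 binds, were searched on both strands of the 250 bases before each gene's start (RefSeq, GRCm38.p6), and Spi1, which encodes PU.1, rose by 3.33 ± 0.75. Of 14 macrophage markers with a promoter entry 5 held the letters (35.7%): C1qc, Mrc1, Trem2, Itgam and Fcgr1. A gene counted if any of its promoter entries held the letters. The share was 12.0% of the 27025 genes with an entry and 12.7% of the tested genes among them. The stretches around the letters in those 4 that rose are given 5′ to 3′ on the gene's strand, and capitals mark the match, which is on the other strand in each (CTTCCTC).
C1qc, chr4:136893057-136893153, reverse strand: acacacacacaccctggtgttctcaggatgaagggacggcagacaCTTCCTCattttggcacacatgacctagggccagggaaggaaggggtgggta
Mrc1, chr2:14229201-14229297, forward strand: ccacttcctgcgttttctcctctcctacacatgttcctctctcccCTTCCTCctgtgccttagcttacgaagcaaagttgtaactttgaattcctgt
Trem2, chr17:48346315-48346400, forward strand: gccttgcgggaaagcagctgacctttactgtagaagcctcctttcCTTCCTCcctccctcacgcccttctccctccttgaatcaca
Fcgr1, chr3:96293974-96294070, reverse strand: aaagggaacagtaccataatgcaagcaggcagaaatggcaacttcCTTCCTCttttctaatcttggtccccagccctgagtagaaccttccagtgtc
Of the other letters searched, TATAAA was looked for in all 44 lists. It was in 14.3% of all genes with an entry and 10.7% of the tested genes among them. The highest share was that of chemokines and cytokines, 9 of 18 (50%), Ccl8 and Ccl12 among them, and the next that of dendritic cell markers, 4 of 9. A match of letters is a description of the sequence, and binding was not measured.

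MHC class II genes rose in most members, chemokines and cytokines in some. Of 10 MHC class II genes 7 rose and none fell (median 3.44, 2.63 and 4.29 within the batches). That is 70% beside 21.3% of all genes, and 4 rose without WT MSC 1. H2-Aa, a class II alpha chain, was at 5.43, 6.77 and 5.92 in WT MSC and at 10.81 to 16.33 in tumors with a median of 12.66 (6.98 ± 1.04). The invariant chain gene Cd74 rose by 5.91 ± 1.55 and reached 18.94 in tumor 4, with the other tumors at 10.58 to 13.05. MHC class I genes did not follow: of 14, 2 rose, 3 fell and 9 did not pass (median -1.07). The share that passed was 35.7% beside 21.3% of all genes. Of these 14, 0 passed without WT MSC 1 or without WT MSC 2 and 1 without WT MSC 3. Under quantile scaling 8 fell and 0 rose. The peptide transporter genes Tap1 and Tap2 fell by 1.74 ± 0.46 and 2.71 ± 0.70, while the immunoproteasome gene Psmb8 rose by 1.96 ± 0.55.

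Of 27 chemokines and cytokines 10 rose and none fell (median 0.99), which is 37% beside 21.3% of all genes. Without WT MSC 1, 7 rose. Ccl8, a monocyte chemokine, had the largest rise of the genes named here. It was at 3.44, 6.07 and 6.07 in WT MSC, the floors of the 2 batches, and at 12.98, 13.61, 11.24, 16.64, 16.27 and 11.52 in tumors 1 to 6. The lowest tumor was thus far above every WT MSC library (8.52 ± 1.23, limma, adjusted p = 0.00169). Ccl12 rose by 6.98 ± 1.01, Ccl6 by 5.80 ± 1.2, Ccl7 by 4.15 ± 0.95 and Ccl4 by 3.86 ± 0.75, and Cxcl16 rose by 2.14 ± 0.29, with every tumor above every WT MSC library. Of 24 interferon response genes 2 rose (Isg15 and Oas1a) and 2 fell (Irf1 and Stat2), which is 16.7% beside 21.3% of all genes, and 0 passed without WT MSC 1, without WT MSC 2 or without WT MSC 3.

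The other cell types outside the sort gate moved in different directions. Of 17 endothelial markers 12 rose and none fell (median 1.86, 2.04 and 2.21 within the batches), which is 70.6% beside 21.3% of all genes. The mean over the 17 was 5.53 to 6.09 in WT MSC libraries and 6.85 to 9.10 in tumors. The VE-cadherin gene Cdh5 was at 4.28, 5.60 and 5.60 in WT MSC and at 7.24 to 8.84 in tumors (2.97 ± 0.45), and Kdr, which encodes a VEGF receptor, rose by 2.40 ± 0.50. The endothelial count was sensitive to WT MSC libraries, with 3 rising without WT MSC 1 and 6 without either of the other two, and 1 member fell under quantile scaling. Of 18 T and NK cell markers 5 rose and 13 did not pass (median 1.63), which is 27.8% beside 21.3% of all genes. Of these 18, 1 rose without WT MSC 1 and 2 without WT MSC 2 or 3, while 9 and 10 rose under quantile and upper-quartile scaling. Cd3d, of the T cell receptor complex, rose by 2.71 ± 0.51 and was at 6.35 to 8.78 in tumors. Of 11 B lineage markers 1 rose and 1 fell, which is 18.2% beside 21.3% of all genes, and 0 passed without WT MSC 1.

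Some immature myeloid and red cell genes were higher in the sorted stromal cells. Of 15 erythroid markers 9 fell and none rose (median -2.75, -4.95 and -2.06 within the batches). That is 60% beside 21.3% of all genes, and 7 fell without WT MSC 1. The erythroid factor Klf1 was at 12.39, 8.92 and 10.89 in WT MSC and at 4.52 to 6.75 in tumors (-4.99 ± 0.71), and Car1 fell by 6.49 ± 0.94. The globin genes did not pass: Hba-a2 was at 17.20, 14.68 and 14.54 in WT MSC and at 13.38 to 17.98 in tumors, so the groups overlapped, and reads of the near-identical Hba-a1 could have been split with it. Of 17 neutrophil and granulocyte markers 5 fell and 12 did not pass (median -1.34, -3.57 and -0.05 within the batches), which is 29.4% beside 21.3% of all genes. Of these 17, 4 fell without WT MSC 1 and 11 after transcript length adjustment. The 5 included the primary granule genes Elane (-5.08 ± 0.73), Mpo (-5.24 ± 1.05) and Prtn3 (-3.63 ± 0.59), and Mpo was at 13.84, 13.59 and 10.41 in WT MSC. Thus WT MSC libraries, sorted as CD45- and Ter119-, held transcripts of both lineages, and the part this plays in the falls was not tested. Epithelial and Schwann cell markers, 6 tested in each list, gave no gene that passed in limma (0 of 6 and 0 of 6). An unadjusted p under 0.05 (limma) was reached by 1 and 3 of them, beside 7056 of all 18948 genes. All 6 epithelial markers averaged under 6.5 in both groups.

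**Figure D3:**
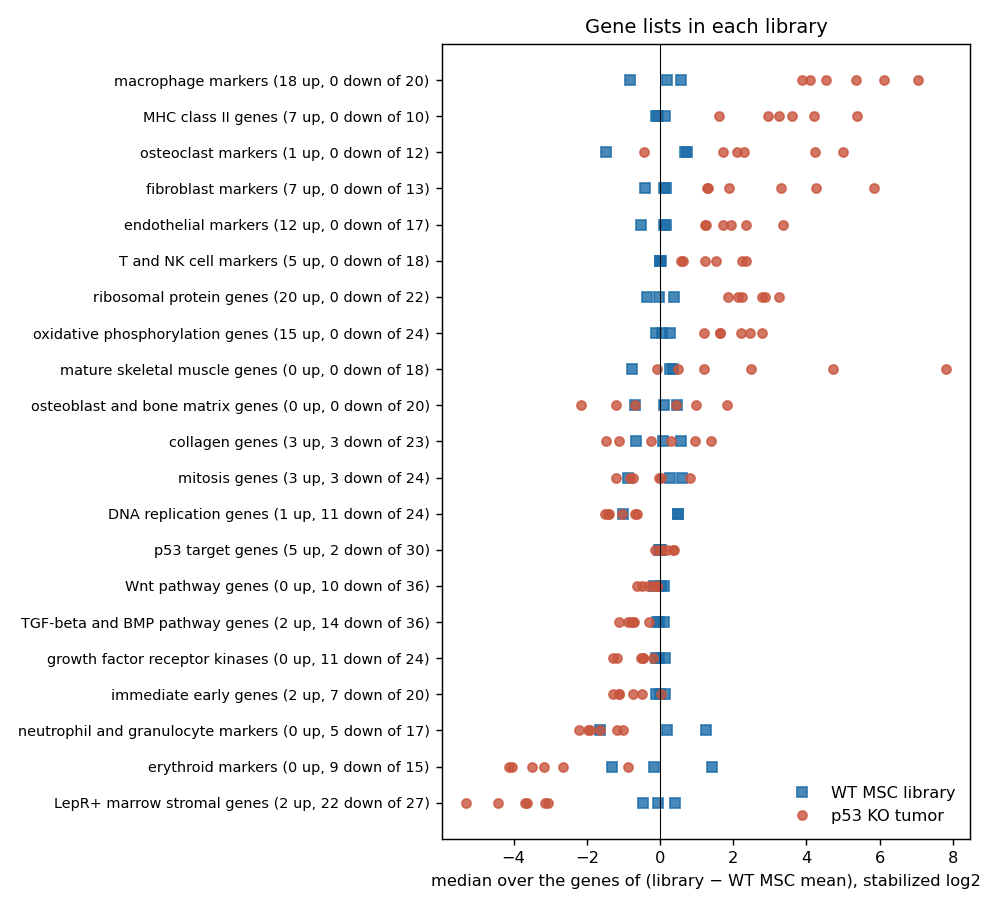
For each gene list, the horizontal position is the median over its genes of the library's value minus the WT MSC mean, in stabilized log2 units, with squares for WT MSC libraries and circles for tumors. Macrophage markers lie between 3.89 and 7.05 in the 6 tumors and LepR+ stromal genes between -5.30 and -3.05, while osteoblast genes lie on both sides of 0.

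The share of p53 target genes that passed was near that of all genes. Of 30 p53 target genes 5 rose, 2 fell and 23 did not pass, which is 23.3% beside 21.3% of all genes, and 15 of the 30 differences were above 0 and 15 below. The median was -0.02, and it was -0.11 and 0.35 within the batches. It was 0.09 to 0.11 with the other table, upper-quartile scaling or transcript length adjustment, and 0.19 without WT MSC 1. Over the alternatives it ran from -0.17 with the replicate block to 0.35 in batch 2 alone. Cdkn1a, which encodes the cell cycle inhibitor p21 (chromosome 17, 29090979 to 29100722), was at 8.15, 10.13 and 9.43 in WT MSC and at 11.82, 11.62, 12.58, 11.43, 11.15 and 11.34 in tumors 1 to 6. Every tumor was above every WT MSC library, and Cdkn1a rose by 2.42 ± 0.46 (limma, adjusted p = 0.00509). Bax, a death effector, rose by 1.88 ± 0.30 and the apoptosis gene Pmaip1 by 2.12 ± 0.48. Xpc, a DNA repair gene, and Ephx1, an epoxide hydrolase, fell by 1.86 ± 0.33 and 2.60 ± 0.60. Mdm2 (-0.12 ± 0.30) and Ccng1 (-0.10 ± 0.31), a pair of commonly used p53 readouts, did not pass. Without WT MSC 1 or without WT MSC 2 the list gave 3 higher and 1 lower, without WT MSC 3 2 and 2, and with the replicate block 1 and 1.

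The G1 regulators changed in both directions. Of 16 cyclins, kinases and inhibitors of G1, 5 rose and 2 fell, which is 43.8% beside 21.3% of all genes (3 and 1 without WT MSC 1). Ccnd1, which encodes cyclin D1 (chromosome 7, 144929931 to 144939831), was at 5.33, 7.54 and 7.24 in WT MSC and at 11.02, 12.63, 10.59, 13.50, 13.07 and 12.50 in tumors 1 to 6. The groups were separated by more than their own spread (5.52 ± 0.71, limma, adjusted p = 0.00133). Ccnd2 rose by 2.32 ± 0.57, whereas Ccnd3 fell by 1.77 ± 0.40. The inhibitor genes Cdkn2a (3.75 ± 0.79) and Cdkn2b (3.88 ± 0.82) rose, and Cdkn2a was at 6.95 and 6.92 in tumors 1 and 3 and at 8.28 to 10.43 in the other 4. Rbl2, a relative of the retinoblastoma gene, fell by 2.40 ± 0.33.

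DNA replication genes had a median difference of -1.25 (-1.61 and -0.79 within the batches), and which of them passed rested on WT MSC 1 and 3. Of 24, 11 fell and 1 rose, which is 50% beside 21.3% of all genes. Mcm2, a subunit of the replicative helicase, was at 11.72, 9.46 and 11.40 in WT MSC and at 8.36, 8.92, 8.15, 9.87, 8.19 and 8.94 in tumors 1 to 6. WT MSC 2 lay within the tumor range, and the difference was -2.12 ± 0.54 (limma, adjusted p = 0.0186). Of the 24, 0 fell without WT MSC 1 and 0 without WT MSC 3, while 12 fell without WT MSC 2, and the median was -0.84 without WT MSC 1 and -0.95 without WT MSC 3. Leaving out WT MSC 1 and tumor 4 together, 5 fell. The list's median deviation from the WT MSC mean was 0.50, -1.0 and 0.49 in WT MSC 1 to 3 and -1.51 to -0.62 in tumors. Among blood cell lists, erythroid markers were at 1.43, -1.31 and -0.18 in WT MSC 1 to 3. Megakaryocyte and progenitor markers were at 0.79, -0.40 and -0.30, and WT MSC 2 was lowest in both lists. Neutrophil and granulocyte markers were at 1.26, 0.19 and -1.65, lowest in WT MSC 3. The part of blood cells in the fall of replication genes was not tested. Rrm1 (-1.86 ± 0.40) and Mcm4 (-1.67 ± 0.39) fell with no overlap between groups, and Tyms rose by 1.35 ± 0.38. Of 24 mitosis genes 3 rose and 3 fell, which is 25% beside 21.3% of all genes: Cdk1 (1.79 ± 0.49), Birc5 (1.43 ± 0.42) and Cenpf (2.01 ± 0.42) were higher, and Kif11, Nusap1 and Mybl2 lower. These counts were 1 and 0 without WT MSC 1, 1 and 3 without WT MSC 2, and 3 and 0 without WT MSC 3. Mki67, the usual proliferation marker, did not pass (0.46 ± 0.39).

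The promoters of the replication genes that fell are shown for the letters TTCCCGC, which E2F factors bind. On either strand of the 250 bases before the start, 5 of 19 replication genes with a promoter entry held them (26.3%). The share was 4.38% of all 27025 genes with an entry and 6.78% of the tested genes among them. The letters CCAAT, bound by NF-Y, were in 12 of these 19 (63.2%) and in 16 of 19 mitosis genes (84.2%). They were in 37.5% of all genes with an entry and 39.2% of the tested genes among them. The letters TTTGAA were in 7 of 19 mitosis genes (36.8%) and in 4 of 19 replication genes (21.05%). The share was 18.3% of all genes with an entry and 14.4% of the tested genes among them. Capitals mark the TTCCCGC match, read on the gene's strand 5′ to 3′ and as its reverse complement GCGGGAA in Mcm7 and Cdc6. The promoter entries shown for Mcm7 and Cdc6 use a transcript start that lies inside the gene, so these stretches lie within RefSeq's span of the gene.
Mcm7, chr5:138171997-138172093, reverse strand: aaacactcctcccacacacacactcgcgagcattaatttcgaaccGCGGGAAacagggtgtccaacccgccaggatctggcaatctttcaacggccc
Cdc6, chr11:98907968-98908064, forward strand: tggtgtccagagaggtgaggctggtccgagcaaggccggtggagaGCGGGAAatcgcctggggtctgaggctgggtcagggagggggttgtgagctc
Rrm1, chr7:102441583-102441679, forward strand: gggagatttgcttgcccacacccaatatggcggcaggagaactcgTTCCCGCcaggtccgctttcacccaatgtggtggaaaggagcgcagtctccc
Mcm7 fell by 1.65 ± 0.52 and Cdc6, a helicase loader, by 2.15 ± 0.51, in both of which WT MSC 2 overlapped the tumors.

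Extracellular matrix genes changed gene by gene. Of 35 matrix glycoproteins and proteoglycans 5 rose and 8 fell (median -0.21), which is 37.1% beside 21.3% of all genes. Of these 35, 3 rose and 4 fell without WT MSC 1, and 3 and 3 without WT MSC 2. Fn1, the fibronectin gene, was at 5.60, 8.06 and 7.82 in WT MSC and at 13.41, 10.97, 11.47, 14.88, 14.76 and 11.56 in tumors 1 to 6, with no overlap (5.68 ± 0.97, limma, adjusted p = 0.00299). Mfap5, a microfibril gene, rose by 4.67 ± 0.76, Postn, periostin, by 4.62 ± 1.35 and Aspn, asporin, by 3.01 ± 0.53. Prelp fell by 5.36 ± 0.72, the fibrillin gene Fbn1 by 2.75 ± 0.63, and Cyr61 and Ctgf, induced by YAP and TAZ in many cells, by 3.17 ± 0.61 and 3.02 ± 0.79. Wwtr1, which encodes TAZ, rose by 2.31 ± 0.62, and Yap1 (0.24) did not pass. Of 23 collagen genes 3 rose and 3 fell, which is 26.1% beside 21.3% of all genes. The basement membrane genes Col4a1 and Col4a2 fell by 2.68 ± 0.70 and 3.0 ± 0.95, and Col6a3 rose by 2.36 ± 0.67. Without WT MSC 2 0 collagen genes passed, without WT MSC 1, 0 rose and 2 fell, and without WT MSC 3, 1 rose and 1 fell.

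Timp1, an inhibitor of matrix metalloproteinases (chromosome X, 20870166 to 20874737), rose to nearly the same level in every tumor. It was at 8.14, 9.07 and 8.62 in WT MSC and at 13.04, 13.22, 12.99, 13.43, 12.81 and 13.76 in tumors, and rose by 4.60 ± 0.35 (limma, adjusted p = 0.000638). Plaur, the urokinase receptor, rose by 3.20 ± 0.77, and the collagen crosslinker Lox and the procollagen protease Adamts2 fell by 1.95 ± 0.60 and 3.86 ± 0.76. Of 32 matrix processing enzymes and inhibitors 2 rose and 4 fell, which is 18.8% beside 21.3% of all genes, and 1 and 1 without WT MSC 1. Of 13 fibroblast markers 7 rose and none fell (median 2.64), which is 53.8% beside 21.3% of all genes. Without WT MSC 1, 5 rose. The 7 included Cthrc1 (6.02 ± 0.80), Ly6a, which encodes the Sca1 antigen (5.11 ± 0.94), Dpt (3.81 ± 0.86) and S100a4 (6.53 ± 0.76). Ly6a and S100a4 are also expressed by endothelial and immune cells, and their source in these bulk samples was not tested. Of 16 smooth muscle and myofibroblast genes 3 rose, which is 18.8% beside 21.3% of all genes, and 1 did without WT MSC 1 or without WT MSC 3. Acta2, alpha smooth muscle actin, was at 4.70, 7.54 and 7.11 in WT MSC and at 10.61 to 13.60 in tumors (5.31 ± 0.74). Of the galectin genes, Lgals3 rose by 6.46 ± 0.63 and Lgals1 by 6.42 ± 1.01. Mest, an imprinted gene, rose by 4.46 ± 0.98 and reached 13.29 in tumor 6, whereas Igf1 and the binding protein gene Igfbp4 fell by 1.57 ± 0.40 and 4.26 ± 0.89.

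Genes of the ribosome and of the respiratory chain rose in most of their members. Of 22 ribosomal protein genes 20 rose and 2, Rpl3 and Rpl4, did not pass (median 2.51, 2.71 and 2.60 within the batches). That is 90.9% beside 21.3% of all genes. Under quantile scaling 12 rose, while 16 rose without WT MSC 1 and 15 after transcript length adjustment. Rps14 was at 11.07, 11.74 and 12.02 in WT MSC and at 14.60 to 16.58 in tumors (4.15 ± 0.61). Ribosomal protein genes have processed copies, so counting may have split their reads. Of 24 oxidative phosphorylation genes 15 rose and none fell (median 1.92), which is 62.5% beside 21.3% of all genes. Of these 24, 13 rose without WT MSC 1, and 11 rose and 1 fell under quantile scaling. Ndufa2, a subunit of complex I, was at 8.51, 10.40 and 10.16 in WT MSC and at 12.87 to 15.50 in tumors (4.35 ± 0.61), and the complex IV subunit gene Cox6c rose by 4.22 ± 0.73. The catalytic subunit genes Ndufs1 (-0.95) and Sdha (-1.17) did not pass.

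Transcript length moved with the result, and its part was not tested beyond an adjustment of the values. Genes were split by transcript length into 5 classes of equal size. In the class with the shortest transcripts (up to 1625 bases, each gene by its longest transcript), 23.6% rose and 2.19% fell, and among the longest class 4.92% rose and 13.9% fell. Among genes with a mean of at least 8, the median difference was 1.78 in the shortest class and -0.24 in the longest, and in the shortest class each of the 6 tumors was at 1.33 to 2.22 and each WT MSC library at -0.16 to 0.11. After length adjustment, the median of ribosomal protein genes went from 2.51 to 2.07, that of oxidative phosphorylation genes from 1.92 to 1.69, that of macrophage markers from 5.39 to 5.12 and that of LepR+ stromal genes from -3.96 to -4.01. The stromal cells were lysed in RLT buffer and the tumors extracted with TRIzol, so length and extraction cannot be told apart from the groups.

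**Figure D4:**
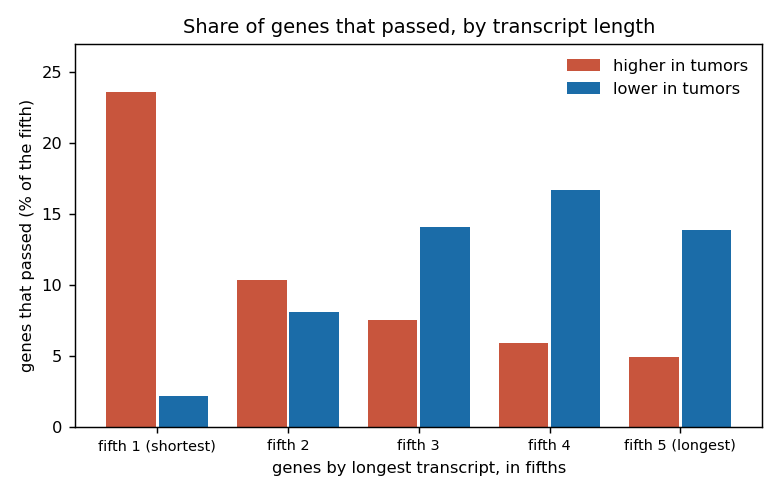
Bars give the share of genes in each of 5 equal classes of transcript length that were higher (red) or lower (blue) in tumors, in percent of the genes of that class, starting at 0. The share that rose goes from 23.6% in the shortest class to 4.92% in the longest, and the share that fell is smallest in the shortest class at 2.19%.

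Of 26 glycolysis and hypoxia genes 6 rose and 1 fell (median 0.97), which is 26.9% beside 21.3% of all genes, and 4 rose and 1 fell without WT MSC 1. Hilpda, a hypoxia-induced lipid droplet gene, was at 7.55, 7.74 and 7.43 in WT MSC and at 9.75 to 11.27 in tumors (2.88 ± 0.36), and Ankrd37 rose by 2.52 ± 0.50. Of the glycolytic enzymes Hk2 (2.36 ± 0.48) and Pgk1 (2.23 ± 0.35) rose. Car9, induced by low oxygen and near the floor in WT MSC, rose by 1.03 ± 0.30, and Epas1, which encodes a hypoxia-inducible factor, fell by 3.24 ± 0.74. Of 20 immediate early genes 7 fell and 2 rose (4 and 1 without WT MSC 1), which is 45% beside 21.3% of all genes. Fos was at 12.79, 11.51 and 12.92 in WT MSC and at 6.77 to 9.55 in tumors (-3.95 ± 0.61), Jund fell by 2.82 ± 0.46, and Fosl2 and Klf4 rose by 2.15 ± 0.46 and 2.62 ± 0.56. These genes also respond to cell isolation, and the 2 groups were isolated differently, so isolation and group cannot be told apart.

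Tumors were far from uniform. Taken singly, tumor 1 had 888 genes (4.69% of those tested) at least 2 units above the highest WT MSC library and 258 (1.36%) as far below the lowest. Tumor 2 had 886 (4.68%) and 569 (3%), tumor 3 had 859 (4.53%) and 397 (2.1%), and tumor 4 had 1091 (5.76%) and 447 (2.36%). Tumor 5 had the most, 1623 (8.57%) and 987 (5.21%), and tumor 6 had 1167 (6.16%) and 787 (4.15%). In all 6 tumors together 157 genes were that far above and 124 that far below, whereas 1164 were above and 548 below in exactly 1 tumor. Low in every WT MSC library (under 6.5) and at 9 or more in every tumor were 11 genes: Ccl8, Wfdc17, Ms4a7, C1qa, Ccl12, Aif1, S100a4, Gstp2, Ms4a6c, Gpihbp1 and Clec4a3. Gstp2 has a close copy, so its reads may have been split.

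The genes of bone formation differed widely between tumors. Of 20 osteoblast and bone matrix genes 0 passed in limma, and 10 had differences above 0 and 10 below. An unadjusted p under 0.05 (limma) was reached by 2, beside 7056 of all 18948 genes. Ibsp, which encodes bone sialoprotein, was at 14.32, 17.27 and 16.20 in WT MSC, and at 19.26, 16.22 and 16.00 in tumors 1, 3 and 6 but 8.79, 8.56 and 9.35 in tumors 2, 4 and 5. Ifitm5, a mineralization gene, was at 13.43, 11.43 and 13.93 in tumors 1, 3 and 6, above the 5.32, 7.87 and 7.63 of WT MSC, and at 5.23, 7.06 and 6.27 in the others. The list's median deviation from the WT MSC mean was 1.83, 0.42 and 0.99 in tumors 1, 3 and 6 and -2.17, -1.19 and -0.68 in tumors 2, 4 and 5. Osteoclast markers followed in part, highest in tumors 1 and 3 (4.24 and 5.00), but -0.44 to 2.30 in the other 4. The osteoclast protease gene Ctsk was at 15.69 and 17.77 there and at 10.87 to 14.28 elsewhere.

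Some single genes, picked for this pattern, were high in tumors 2, 4 and 5, where bone genes were low. Hmga2, a chromatin gene of embryonic and mesenchymal tumor cells, was at 10.73, 8.40 and 10.62 in these 3 and at 5.23 to 6.09 in tumors 1, 3 and 6, near the 5.21 to 5.32 of WT MSC. Igfbp6 was at 12.89, 14.15 and 14.76 against 7.71 to 8.14 in tumors 1, 3 and 6, and Osr2, a transcription factor gene, at 8.89, 8.85 and 9.90 against 4.89 to 5.62. Igf2bp3, an oncofetal RNA-binding protein gene, and Dkk2 were likewise higher in these 3 than in the others. The medians of the collagen list (-1.48, 1.39 and -1.11 in tumors 2, 4 and 5) and of the smooth muscle list (-0.44, 1.60 and -0.15) did not set these 3 apart from tumors 1, 3 and 6. The 2 sets of tumors were described from these values and were not tested, and each set mixes both batches. Skeletal muscle genes had another order, and 0 of the 18 passed in limma (median 2.70). An unadjusted p under 0.05 (limma) was reached by 5, beside 7056 of all 18948 genes. Acta1, skeletal actin, was at 9.94, 6.67, 14.04, 19.28, 8.75 and 7.10 in tumors 1 to 6, with WT MSC at 4.25 to 5.74. Myod1 (0.62) and Myog (0.85), which drive muscle formation, did not pass, and whether muscle tissue was in the sampled tumors was not tested.

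Neighbouring genes on chromosome 6 were high together in tumor 4. Met, Cav1, Cav2 and Tes lie between positions 17065149 and 17573980, and each had its highest tumor value in tumor 4. Tes, which encodes testin, was at 7.57, 10.66, 8.04, 15.42, 12.21 and 9.37 in tumors 1 to 6, with WT MSC at 5.47 to 6.25. Cav1, a caveolin gene, was at 15.14 in tumor 4 and 8.11 to 12.35 in the other tumors, and Met at 11.13 against 6.18 to 8.08. The next genes along the chromosome, Capza2 and St7, had their highest values in tumors 5 and 6. Of 8 genes within 1 Mb of Met that reached 6.5 in a tumor, 4 were highest in tumor 4, 3 in tumor 5 and 1 in tumor 6. Myc, a growth-driving transcription factor gene on chromosome 15, was at 12.20 in tumor 4 and 8.95 to 10.34 in the others, and the median deviation from the WT MSC mean over the 738 tested genes of chromosome 15 was 0.58 in tumor 4 and -0.23 to 0.03 in the others. DNA copy number was not measured, and the windows were chosen after these values were seen.

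**Figure D5:**
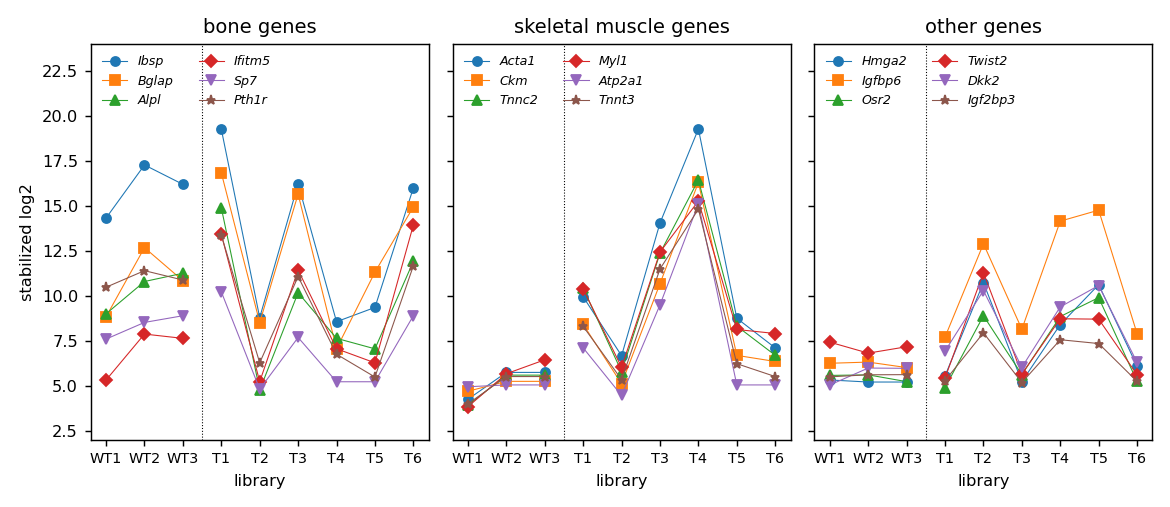
Each panel shows stabilized log2 values by library for 6 genes, with WT MSC 1 to 3 left of the dotted line and tumors 1 to 6 right of it; lines join values of a gene and stand for no order. Bone genes are high in tumors 1, 3 and 6, muscle genes in tumors 4 and 3, and Hmga2 and Igfbp6 in tumors 2, 4 and 5.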

How the data were processed

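Bulk RNA-seq of 6 tumors and 3 WT MSC samples was analysed from the deposited gene tables. Per the labels' protocols, cDNA was made with SMART-Seq v4, sheared on a Covaris and built into libraries with the NEBNext Ultra DNA kit, which keeps no strand, so reads of overlapping or antisense genes cannot be told apart. TopHat2 2.0.13, Cufflinks 2.2.1, Cuffdiff and mm10 are named in the submitters' processing notes, without their roles. The stabilized values are on a log2 scale and were adjusted for batch by the authors, as the deposited table's title says. The second deposited table, named normalized counts, is a score: 100% of its values equal 100 times the stabilized value, rounded, over a factor per library (tolerance 0.01). Neither table holds counts, so depth and counting error are unknown and no count test was run. The 3 columns of knockout stromal cells in either one were left unused.

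The 18948 genes were fitted with limma 3.58.1 in R 4.3.3 (a linear model without covariates, moderated variances with an intensity trend, two-sided), with Benjamini-Hochberg adjustment over all of them, and the method was tested on simulated data. Batches were read from values that many genes share exactly in a library. Gene positions and promoters came from RefSeq, GRCm38.p6, and transcript lengths from the GENCODE annotation. Gene lists are described by counts and medians, with no set test. Named genes were the 15 largest non-overlapping changes in each direction with a mean of at least 8 in the higher group, up to 4 members of each list by adjusted p, the gate genes, genes low in 1 group and high in the other, and genes with tight or wide tumor values. Further list members, the neighbours of Met, and the sets of tumors were chosen after their values were seen. The comparison and all lists were chosen with earlier results of these data known. Alternatives varied the table, filter, scaling, trend, library weights, batch, replicate block, minimum change and libraries. For length adjustment, a smooth curve (loess) of the genes' deviations from their means on log2 length was subtracted in each library before the same fit. Length adjustment and leaving out WT MSC 1 with tumor 4 were added after seeing the data.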

Additional observations from a re-analysis of the deposited data

Results flagged for a closer look

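In 15 of 220 named genes (6.82%) the highest or lowest of the 6 tumors lay far from the other 5, by a gap test that chance passes in about 1 in 20 groups. Of these, 5 were in tumor 4, 4 in tumor 5, 3 in tumor 6, 2 in tumor 2, 1 in tumor 1 and 0 in tumor 3.

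In tumor 4, Cd74 was at 18.94 with the nearest other tumor at 13.05, Blnk, a B cell and macrophage adaptor gene, at 9.16 with the nearest at 7.59, and Rbl2 at 7.45 with the nearest at 6.6. The chaperone gene Hspe1 was low there, at 11.23 with the nearest at 12.98, and the keratin gene Krt18 was at 6.835 with the nearest at 4.77. In tumor 5, the interferon-induced gene Ifi27l2a was at 16.3 with the nearest at 12.81. The chromatin gene Atrx was at 10.88 there with the nearest at 9.20, Krt19 at 8.13 with the nearest at 5.84, and Ankrd37 at 9.66 with the nearest at 7.78.

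In tumor 6, the dipeptidase gene Dpep1 was at 4.53 with the nearest at 6.77, Igf1 at 7.91 with the nearest at 9.11, and Krt14 at 5.77 with the nearest at 4.77. In tumor 2, Mef2c was at 7.86 with the nearest at 10.43, and the prostacyclin synthase gene Ptgis at 6.78 with the nearest at 10.98. In tumor 1, the cartilage matrix gene Comp was at 9.48 with the nearest at 6.35.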

How the results depend on the processing

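The count of genes that passed, 4033, was 3439 to 4386 with the other table, another filter or scaling, no trend or a batch term, and rose to 6821 (3171 higher, 3650 lower) with library weights. It was 540 (184 higher, 356 lower) in batch 2 alone, and 648 (380 higher, 268 lower) when a change of at least 1 was tested for. Leaving out 1 library gave 1856 to 4737 genes, 887 to 2134 higher and 969 to 2603 lower. Length adjustment gave 3281 lower, and leaving out WT MSC 1 and tumor 4 together 1191 higher. Upper-quartile scaling moved the median of all genes from -0.06 to 0.05. The share of higher genes among those that passed was 48.9%, 39.2% with libraries 1 to 3 of each group, and 34.1% in batch 2 alone, but 54.7% with a mean of at least 7, 55.3% with a replicate block, 56.4% with the other table, 57.1% with upper-quartile scaling and 58.6% in the test of a minimum change.

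Replicate numbers did not pair the samples (correlations of same-numbered libraries -0.28, -0.22 and -0.09), and with a replicate block 1194 genes passed (660 higher, 534 lower), against 4301 in the same 6 libraries without it. Trp53 differed by -2.59 to -2.12 with 1 library left out, by -2.61 in batch 2 alone (limma, adjusted p = 0.204) and by -2.33 in the test of a minimum change (limma, adjusted p = 0.174).

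Of 189 named genes that passed, 32 kept their call and direction under every alternative, 96 when batch 2 alone and the fits to numbers 1 to 3 are set aside, and 0 reversed. Calls were lost in 154 in batch 2 alone, 91 in the test of a minimum change, 80 with the block and 65 without WT MSC 1. Among named genes the sign turned only in some that had not passed: Krt18 (-0.025 with the block and with numbers 1 to 3, -0.0098 to 0.41 with 1 library left out, -0.21 with length, -0.022 without WT MSC 1 and tumor 4), Krt14 (-0.17 with length) and Ngfr (-1.06 to 0.25 with 1 library left out). Of all 4033 genes that passed, 17 reversed after length adjustment. The causes were not tested. Depth is unknown, and values at the floor set no limit on expression.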

Other observations

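Other gene groups moved in few members. Of 20 lysosomal genes 4 rose and 1 fell, with Ctsh (2.36 ± 0.60) and Lgmn (1.99 ± 0.53) higher and Gaa, the acid glucosidase gene, lower (-3.04 ± 0.79), which is 25% beside 21.3% of all genes, and 0 passed without WT MSC 1. Of 13 megakaryocyte and progenitor markers 2 rose and 4 fell, which is 46.2% beside 21.3% of all genes. Without WT MSC 1, 2 rose and 3 fell. Pf4, a platelet chemokine, was at 7.24, 6.88 and 5.73 in WT MSC and at 8.89 to 14.96 in tumors. The blood cell factors Gata1 and Myb fell by 4.34 ± 0.62 and 3.12 ± 0.48. Of 20 mesenchymal transcription factors 3 rose and 1 fell, with Scx, the tendon factor, 2.37 ± 0.52 higher and Snai2 1.91 ± 0.42 lower, which is 20% beside 21.3% of all genes. Of these 20, 0 rose and 1 fell without WT MSC 1, and 1 rose without WT MSC 2 or without WT MSC 3. Of 15 myogenic program genes 2 rose and 1 fell, which is 20% beside 21.3% of all genes. Those that rose were Mef2c (2.65 ± 0.70) and Chrna1 (3.11 ± 0.95), a subunit of the muscle acetylcholine receptor, and 0 rose without WT MSC 1. Of 22 genes altered in sarcoma 2 rose and 2 fell, which is 18.2% beside 21.3% of all genes, and 0 rose and 1 fell without WT MSC 1. Among those that fell was Braf (-1.78 ± 0.33), which was lower in all 6 tumors than in any WT MSC library. Chaperone genes (2 higher, 2 lower of 18), dendritic cell markers (2 and 1 of 10), sterol and fatty acid synthesis genes (2 and 0 of 20), IGF and imprinted growth genes (2 and 2 of 21), osteoclast markers (1 and 0 of 12) and chondrocyte genes (0 and 1 of 19) completed the lists. In that order the shares that passed were 22.2%, 30%, 10%, 19%, 8.33% and 5.26%, beside 21.3% of all genes. Without WT MSC 1, 2 chaperone genes rose and 1 fell, 1 IGF or imprinted gene fell, and 0 passed in the other 4 of these lists.

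Some genes, named because their tumor values lay close together, rose to nearly the same level in every tumor. Psmb3, a proteasome subunit gene, was at 9.90, 10.72 and 10.80 in WT MSC and at 13.64 to 14.08 in tumors (3.41 ± 0.37), and Calm2 rose by 3.42 ± 0.58. Among even falls, Cp, the ceruloplasmin gene, was at 12.86, 13.06 and 12.85 in WT MSC and at 8.13 to 9.89 in tumors (-4.01 ± 0.38), and the signalling factor gene Stat5b fell by 3.43 ± 0.44.

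Some abundant genes had values near the floor. Gapdh was at 4.53 to 5.91 in all 9 libraries. Ppia, a housekeeping gene with many processed copies, was at 3.35, 7.70 and 7.70 in WT MSC and at 7.70 to 16.98 in tumors, and Rps23 was at 4.53 to 13.77 over the 9 libraries. Genes that fell were 17.8% of those tested on chromosome 8 and 15.8% on chromosome 18, beside 10.9% over all chromosomes, and genes that rose were 13.8% of those on chromosome 3, beside 10.4%.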
